A study of Mus musculus with 82 samples.

Results

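The expression of Plekhb1 in adult liver separated 13 BXD mouse strains into 7 with a high value and 6 with a low one, and every other measured gene was then compared between these groups. The strains were chosen by Plekhb1 itself: on arrays that set liver RNA against an embryo RNA mix, the mean log2 ratio of liver over embryo lay above 0.5 in BXD2, BXD6, BXD11, BXD16, BXD19, BXD21 and BXD31, and below 0.5 in BXD5, BXD12, BXD15, BXD18, BXD28 and BXD32. The high strains are covered by 36 arrays and the low strains by 28, which makes 64 of the 72 BXD arrays and of the 82 arrays in all. The high group holds 20 arrays of female and 16 of male liver, and the low group 16 and 12.

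BXD strains are recombinant inbred lines bred from a cross of C57BL/6J (B6) and DBA/2J (D2), and each array of the comparison carries liver RNA of a single strain and sex beside the same reference, RNA of B6 embryos of day 17.5. In these 13 strains each RNA was hybridised in a forward and a swapped channel order, except the third BXD31 female RNA, which has a forward array only. The series describes unfasted mice of 10 to 20 weeks, 3 males for each strain, of 18 BXD strains, whereas the array labels hold 17 BXD strains and both sexes. No treatment, transgene or deletion is named for any group, and the sources used here do not say whether mice were pooled for an RNA. The strain is the unit of replication in the main fits, since arrays of a strain share its genotype and often its RNA.

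In a recombinant inbred strain each chromosome is a fixed mosaic of the parental chromosomes, so a gene carries the allele of one parent or the other, and close neighbours on a chromosome are usually inherited together. A gene whose own variants set its expression therefore tends to split such strains into groups, and neighbouring genes that differ between the parents can split them the same way. Plekhb1 encodes a membrane-associated protein with a pleckstrin homology domain, known best from photoreceptors and brain, and lies on chromosome 7. The genotypes of the strains were not analysed here.

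The reference promoters of Plekhb1 and of Neu3 are shown because Plekhb1 defined the groups and Neu3, a close neighbour, had the smallest p-value between them. Each runs from 250 bases before an annotated start to 50 after it, 5′ to 3′ on the minus strand of chromosome 7, from RefSeq on GRCm38.p6. The first lies at chr7:100662345-100662644, the second at chr7:100656916-100657215 and the Neu3 promoter at chr7:99828368-99828667. Capitals mark matches, on either strand, to TATAAA (the TATA box), to CCAAT (the CCAAT box), to GGGCGG (the GC box) or to CACGTG (an E-box).
Plekhb1, upstream start: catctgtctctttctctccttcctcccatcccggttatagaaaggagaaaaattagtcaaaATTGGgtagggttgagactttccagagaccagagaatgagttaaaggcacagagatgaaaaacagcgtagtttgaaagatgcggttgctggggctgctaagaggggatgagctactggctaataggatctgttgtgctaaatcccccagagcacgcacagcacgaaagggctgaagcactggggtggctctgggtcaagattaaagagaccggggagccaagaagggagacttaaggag
Plekhb1, downstream start: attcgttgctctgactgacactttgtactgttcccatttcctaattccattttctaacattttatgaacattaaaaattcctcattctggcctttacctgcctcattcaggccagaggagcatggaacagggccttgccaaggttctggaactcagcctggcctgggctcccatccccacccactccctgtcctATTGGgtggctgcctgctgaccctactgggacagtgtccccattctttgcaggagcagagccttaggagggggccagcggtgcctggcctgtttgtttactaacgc
Neu3: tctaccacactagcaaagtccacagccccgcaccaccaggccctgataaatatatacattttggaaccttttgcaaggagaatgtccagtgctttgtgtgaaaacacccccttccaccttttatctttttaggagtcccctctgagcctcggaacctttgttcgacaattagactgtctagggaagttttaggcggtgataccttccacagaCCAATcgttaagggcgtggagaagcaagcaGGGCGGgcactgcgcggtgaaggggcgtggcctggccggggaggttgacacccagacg
Both Plekhb1 windows hold 1 CCAAT box, on the reverse strand, and none of the other motifs. The Neu3 window holds 1 CCAAT box and 1 GC box, and no matches overlapped. A CCAAT box occurs in 37.4% of the 32851 RefSeq promoter windows and a GC box in 35.7%, against 13.6% for the TATA box and 7.15% for the E-box, so neither match is uncommon. These are letters of the reference genome, and what the strains carry at these positions was not analysed here.

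Plekhb1 was selected on these values, so they are a description with no test. Among the low strains the mean log2 liver over embryo ratio ran from -0.68 in BXD28 through -0.37 in BXD12, -0.33 in BXD15, -0.16 in BXD5 and -0.14 in BXD32 to -0.04 in BXD18. Among the high strains it ran from 0.75 in BXD11 through 1.04 in BXD31, 1.38 in BXD2, 1.45 in BXD19, 1.46 in BXD21 and 1.96 in BXD6 to 2.0 in BXD16. No strain mean lay between -0.04 and 0.75, the values just outside and just inside the threshold, a gap of 0.79. The high strains averaged 1.43 ± 0.45 (SD, n = 7) and the low strains -0.29 ± 0.23 (SD, n = 6), which puts the groups 1.72 log2 units, or 3.29-fold, apart. Liver thus read above the embryo mix for Plekhb1 in the high strains and about as high or lower in the low strains. These values rest on 1 probe, and whether the alleles of the strains hybridise to it equally was not tested. In bulk RNA, fewer cells of a type and less RNA per cell cannot be told apart.

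**Figure D1:**
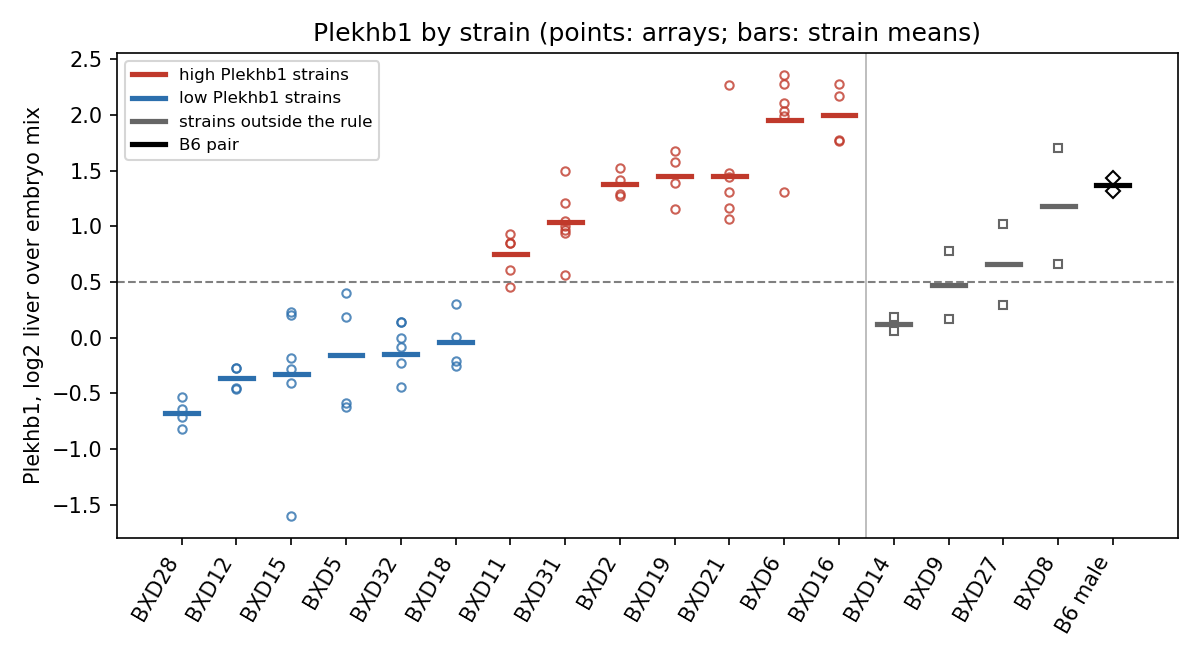
Plekhb1 on each array (points) and as strain means (bars), in log2 liver over embryo mix; the dashed line is the threshold of 0.5 that chose the groups, and squares and diamonds are the arrays of the strains outside the rule and of the male B6 pair. The 13 strain means leave a gap between -0.04 and 0.75, and the B6 pair averages 1.37.

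The group means, which both sexes helped to choose, can also be given by sex. Female values averaged 1.41 ± 0.40 (SD, n = 7) in the high strains and -0.33 ± 0.36 (SD, n = 6) in the low strains, and male values 1.46 ± 0.50 and -0.24 ± 0.29. The highest low value was 0.29, in BXD5 males, and the lowest high value 0.73, in BXD11 males, so the groups did not overlap in either sex. BXD5 differed most between its sexes among the low strains, at -0.60 in females and 0.29 in males. One swapped array of BXD15 females read -1.60, while the other 5 arrays of that strain reached up to 0.23.

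Samples that the rule did not use gave further Plekhb1 values. On the 6 arrays that set B6 liver directly against D2 liver, Plekhb1 was higher in B6 on 6 of 6, by 1.51 to 2.15 log2 units. With orientations and sexes weighted equally the B6 over D2 value was 1.80, close in size to the 1.72 that divides the BXD groups, and it ranked 19 of 21915 features by size. The B6 male pair against the embryo mix read 1.31 and 1.43, within the 0.73 to 2.12 range of the high strains' males and above the 0.29 of the highest low male value. No D2 sample was set against the embryo mix here. The 4 strains with forward arrays only read 1.18 in BXD8, 0.66 in BXD27, 0.47 in BXD9 and 0.12 in BXD14, each the mean of 1 female and 1 male array. On forward arrays alone the high strains spanned 0.77 to 2.24 and the low strains -0.62 to 0.04, so BXD9, BXD14 and BXD27 fell between the groups and only BXD8 lay inside one of them.

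No feature passed the test between high and low strains, and Plekhb1, which chose the groups, was not tested. Of 21914 features compared by limma on 13 strain means, 0 (0%) reached an adjusted p under 0.05 with Benjamini-Hochberg adjustment over all of them, and the smallest adjusted p was 0.952. At an unadjusted p under 0.05 there were 1109 (5.06%), 538 with a higher mean in the high strains and 571 with a lower one, which is about the share that the threshold itself admits. The 2 groups of strains failed to overlap for 4 features (0.0183%), all of them clones whose gene is not named here. Because nothing passed, the counts below use the unadjusted p as a description, a choice made after that result was seen. The background for named genes placed on a chromosome was 234 of 3420 (6.84%), and the count over all features depended on single strains: it was 2004 without BXD15, 1848 without BXD32 and 734 without BXD12.

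Genes close to Plekhb1 had small p-values more often than this background. Distance is given here as gene places, the number of protein-coding genes along the RefSeq order of chromosome 7, because the sources used here name no build behind the array annotation. Only named features could be placed, so a measured gene of the chromosome means a named one throughout. The 18476 unnamed features have no position here, and some may lie near Plekhb1. Within 150 places on either side 36 such genes were measured, and 7 of them (19.4%) had an unadjusted p under 0.05. Of these, 3 had a higher and 4 a lower mean in the high strains. By side, these were 5 of 20 (25%) on the centromeric side and 2 of 16 (12.5%) on the telomeric side. Within 75 places on either side it was 6 of 20 (30%), and within 300 places 12 of 79 (15.2%). The share was 7.08% over the 240 genes of the chromosome beyond 150 places and 6.68% over the 3144 genes of other chromosomes. These genes are neighbours that can be inherited together, so they are not independent, and their counts carry no test.

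Narrower spans were looked at after the values were known, so their limits rest on these values. Within 50 places 6 of 17 genes (35.3%) passed the unadjusted threshold, between 51 and 150 places 1 of 19 (5.26%), and beyond 150 up to 200 places 4 of 16 (25%). The median absolute difference was 0.10 log2 units within 50 places, 0.08 within 150 and 0.05 over all features. None of the 276 named genes placed on the chromosome kept the groups apart without overlap, beside 4 of 21914 features (0.0183%) in all. Those 4 are unnamed, so their chromosome is not known here.

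**Figure D2:**
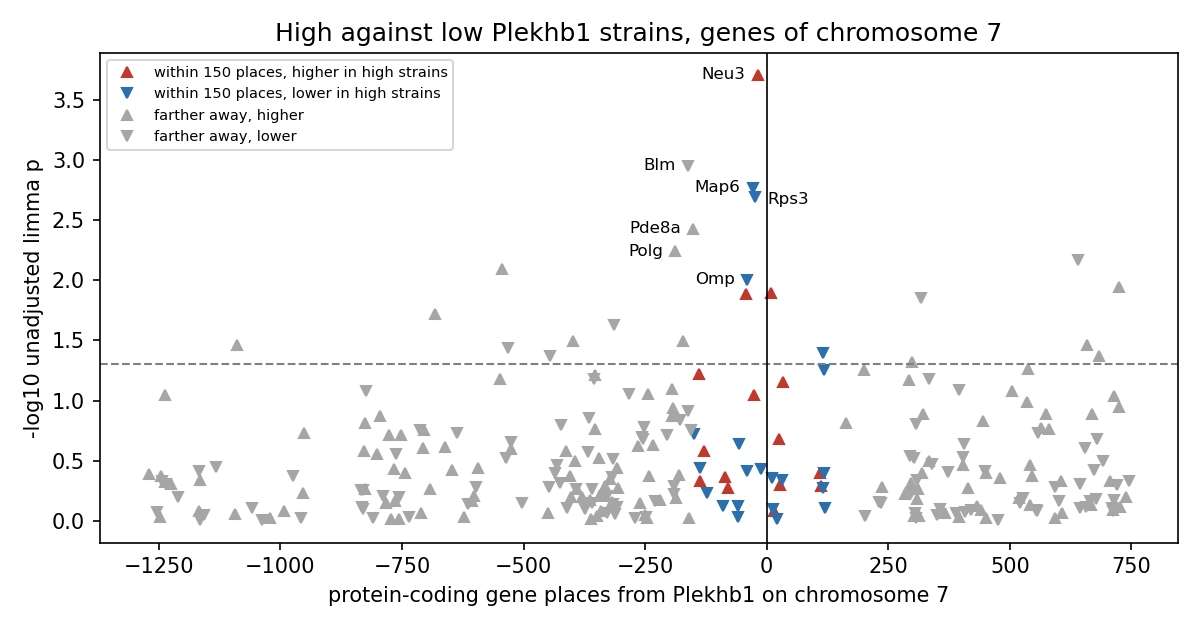
Unadjusted limma p-values, as -log10, for the 276 measured chromosome 7 genes other than Plekhb1, by gene places from Plekhb1 at 0; triangles point up where the high strains had the higher mean and down where they had the lower, and the dashed line is the unadjusted threshold. The 6 highest points lie within 200 places on the centromeric side, led by Neu3, and none passes adjustment over all 21914 features.

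Neu3, which encodes a plasma membrane sialidase that trims gangliosides, lies 18 places from Plekhb1 on the centromeric side. Its log2 liver over embryo ratio had a lowest value of -1.21, a median of -0.94 and a highest value of -0.52 in the high strains, and -2.35, -1.88 and -1.17 in the low strains. Liver thus held less Neu3 RNA than the embryo mix in all 13 strains, and the deficit was deeper in the low group. The means were -0.95 ± 0.26 (SD, n = 7) and -1.80 ± 0.42 (SD, n = 6), a difference of 0.85 (SE 0.17) or 1.81-fold. Neu3 ranked 1 of all features by limma, yet its adjusted p was 0.952. The two-sided exact permutation test over the 13 strains gave p = 0.00175, where the smallest p that the 1716 splits allow is 0.00117. The groups touched through BXD18 alone, a low strain at -1.17, against BXD31 at -1.21 and BXD6 at -1.19. Without BXD18 the difference was 0.98 (adjusted p = 0.394), and over all alternatives the adjusted p for Neu3 ran from 0.355 to 1.

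The Neu3 difference was larger by value in males. It was 1.28 (SE 0.27, limma adjusted p = 1) on male values and 0.43 (SE 0.26, adjusted p = 0.728) on female values. The difference between the sexes, -0.85, had an adjusted p of 0.922, so it did not pass. By p-value Neu3 ranked 2 of all features on male values and 3558 on female values.

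The parental arrays did not settle the direction for Neu3. B6 over D2 was -0.48 and -0.44 on the 2 forward arrays but 0.36 to 1.91 on the 4 swapped arrays, so its sign followed the channel order, with a balanced value of 0.27. The B6 pair showed the same dependence, at -0.66 forward and 0.26 swapped. Within the 13 strains, both orientations gave the difference separately, 0.88 on forward arrays and 0.83 on swapped arrays. Among the 4 strains outside the rule, BXD14, lowest in Plekhb1, had the lowest Neu3 at -3.53. BXD8, highest in Plekhb1, had the highest Neu3 at -1.03. On forward arrays the low strains spanned -2.55 to -1.71 and the high strains -2.02 to -0.58. BXD14 thus lay outside both ranges, as it did for Map6.

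Rps3, a protein of the small ribosomal subunit that also takes part in DNA repair, lies 24 places away and had the opposite sign. Its values were -0.59, -0.09 and 0.18 (lowest, median, highest) in the high strains and -0.02, 0.31 and 0.67 in the low strains. The difference was -0.46 (SE 0.12, limma adjusted p = 0.952, exact permutation p = 0.00466), and 5 of 7 high strains lay below every low strain. It was -0.79 on female and -0.13 on male values (limma adjusted p = 0.922 for the sex difference). B6 read below D2 on all 6 direct arrays, at -0.18 after balancing. Ribosomal protein genes have many near-identical pseudogenes, so which transcripts this probe measured is uncertain.

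Map6, a microtubule-stabilising protein of neurons, lies 28 places away. The high strains had -0.07, -0.0025 and 0.34 as lowest, median and highest values and the low strains 0.19, 0.38 and 0.46, so 6 of 7 high strains lay below every low strain and only BXD19 did not. The difference was -0.28 (SE 0.07, limma adjusted p = 0.952, exact permutation p = 0.00408). Among the genes within 150 places it was the only one under an unadjusted 0.05 in both sexes, at -0.35 in females and -0.22 in males. Over 17 strains on forward arrays alone the difference was -0.06. That fit counted BXD14 as low, with a Map6 value of -1.72. On forward arrays the low strains of the rule spanned -0.23 to 0.19 and the high strains -0.44 to 0.10. On the direct arrays Map6 changed sign with channel order, from -0.45 and -0.26 forward to between 0.28 and 2.36 swapped.

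Stard10, a lipid transfer protein that carries phosphatidylcholine and phosphatidylethanolamine and is abundant in liver, lies 8 places away on the telomeric side and is the nearest measured gene. It was far above the embryo mix in every strain, at 2.90, 3.02 and 3.15 (lowest, median, highest) in the high strains and 2.76, 2.85 and 2.97 in the low strains. The groups overlapped, with a difference of 0.17 (SE 0.06, limma adjusted p = 0.952, exact permutation p = 0.0128). The difference was 0.30 on female and 0.04 on male values. With arrays scaled to equal spread it was 0.32. It was 0.06 with 1 BXD11 female array turned as titled, which sets that array opposite to the other arrays of its RNA. The direct arrays read 0.30 and 0.36 forward and -0.23 to -0.04 swapped.

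Of the other nearest genes, none had an unadjusted p under 0.05. Serpinh1, the collagen chaperone Hsp47, at 27 places, differed by 0.10 (exact permutation p = 0.0693). Kcne3, a potassium channel subunit and the nearest measured gene on the centromeric side at 11 places, differed by -0.09 (exact permutation p = 0.389). On the telomeric side Art2b, an ADP-ribosyltransferase of lymphocytes, differed by -0.03, and Clpb, a mitochondrial chaperone, by -0.02. Folr1, a folate receptor, differed by 0.01 and Il18bp, the secreted inhibitor of interleukin 18, by -0.0033. The 5 nearest measured genes on each side thus had differences of both signs, and the signs of Serpinh1, Clpb, Folr1 and Il18bp turned under at least 1 other processing.

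**Figure D3:**
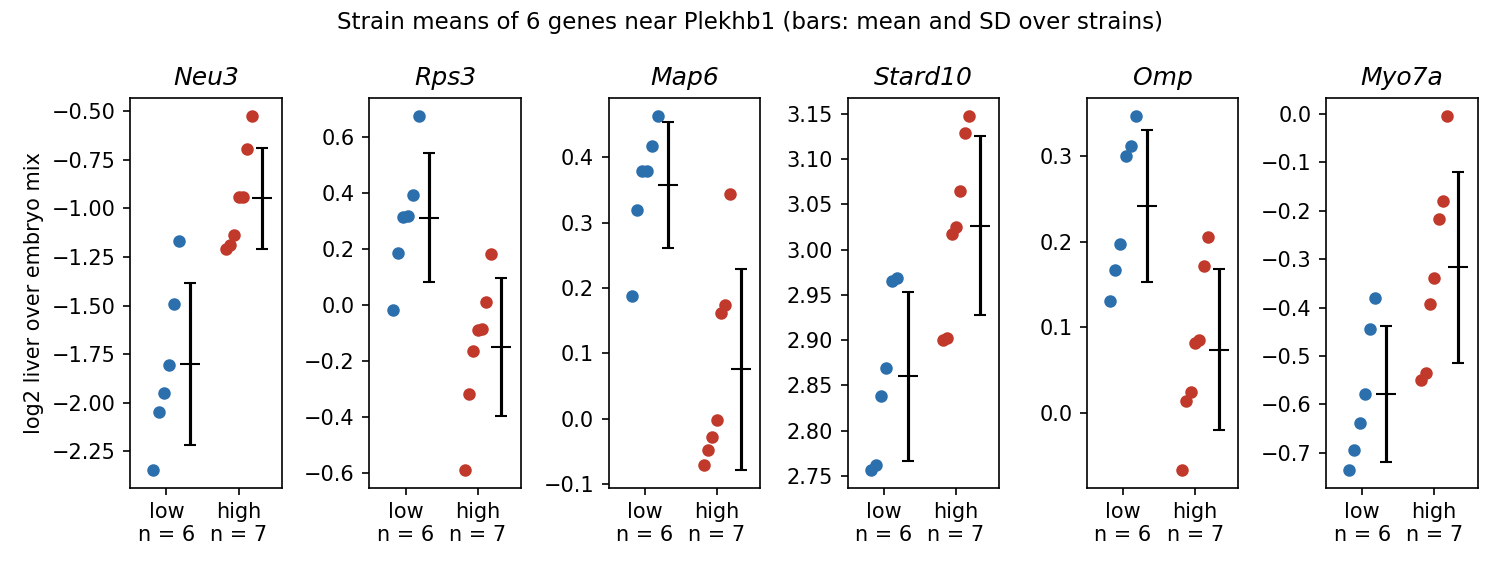
Strain means in log2 liver over embryo mix for the 6 genes within 50 places of Plekhb1 with an unadjusted limma p under 0.05, in the 6 low and 7 high strains; bars give the mean and SD over strains, and each panel has its own axis. The groups overlap in every panel, for Neu3 only through the low strain BXD18 at -1.17.

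Omp and Myo7a complete the 6, and were named after their values were seen. Omp, a marker of mature olfactory neurons 40 places away, averaged 0.07 ± 0.09 (SD, n = 7) in the high and 0.24 ± 0.09 (SD, n = 6) in the low strains, a difference of -0.17 (limma adjusted p = 0.952, exact permutation p = 0.0105). Myo7a, an unconventional myosin of hair cells and retinal pigment epithelium 42 places away, averaged -0.32 ± 0.20 and -0.58 ± 0.14, a difference of 0.26 (limma adjusted p = 0.952, exact permutation p = 0.0245). For Myo7a the direct arrays had the same sign on 6 of 6, with B6 above D2 by 0.05 to 0.64 and a balanced value of 0.37. Omp had a balanced B6 over D2 value of 0.08, opposite in sign to its difference between the groups, which itself was -0.06 over 17 strains on forward arrays. For Myo7a 4 of 7 high strains lay above every low strain, and for Omp 5 of 7 high strains lay below every low strain.

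Farther along the chromosome, 5 more genes within 200 places had an unadjusted p under 0.05, and they too were named after their values were seen. Blm, the helicase of Bloom syndrome, 161 places away on the centromeric side, had the largest difference among them: -2.04, -1.72 and -1.46 (lowest, median, highest) in the high strains against -1.63, -1.10 and -0.65 in the low strains. Its difference of -0.62 (SE 0.15, limma adjusted p = 0.952, exact permutation p = 0.00408) was similar in females (-0.68) and males (-0.56), but the direct arrays gave only -0.06 for B6 over D2. Pde8a, a cyclic AMP phosphodiesterase, differed by 0.32 (exact permutation p = 0.0111) and Polg, the mitochondrial DNA polymerase, by 0.23 (exact permutation p = 0.0105). On the direct arrays B6 over D2 was -0.09 for Pde8a and also -0.09 for Polg after balancing, opposite in sign to these differences. Single direct arrays took both signs, with 2 of 6 above 0 for Pde8a and 1 of 6 for Polg. Cib1, a calcium- and integrin-binding protein, differed by 0.26 (exact permutation p = 0.0513), and B6 lay above D2 on 6 of 6 direct arrays by 0.35 to 0.70. Hbb-bh1, an embryonic beta-like globin 115 places away on the telomeric side, differed by -0.11 (exact permutation p = 0.00408), but this was -0.22 on forward arrays and -0.0028 on swapped arrays, and its near-identical globin relatives make its probe uncertain. Each of these 5 had a limma adjusted p of 0.952 or 0.956. Their permutation p-values are unadjusted and come from the same strain means that chose them, so they add no separate support.

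**Figure D4:**
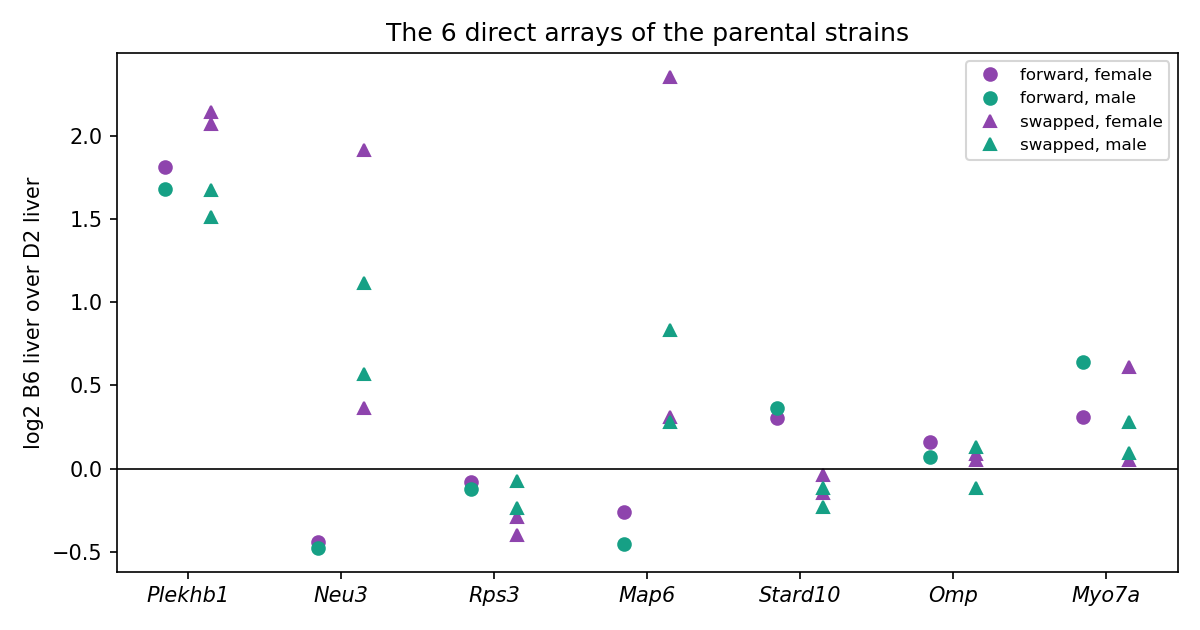
B6 over D2 log2 ratios on the 6 direct arrays for Plekhb1 and the 6 genes of the strain comparison within 50 places, by orientation (circles forward, triangles swapped) and sex (colour). Plekhb1 lies between 1.51 and 2.15 on all 6 arrays, while Neu3, Map6 and Stard10 change sign with the orientation.

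Split by sex, the same comparison had 1550 features (7.07%) at an unadjusted limma p under 0.05 on female values and 380 (1.73%) on male values, with 0 adjusted calls in each (smallest adjusted p 0.7 and 1). Among the 36 genes within 150 places it was 3 (8.33%) on female and 4 (11.1%) on male values, so the female share was near that of all features. Rps3, Map6 and Stard10 made up the female count, and Neu3, Map6, Omp and Myo7a the male count. The test of whether the group difference itself differed between the sexes gave 0 adjusted calls (smallest adjusted p 0.603) and 1157 features (5.28%) at an unadjusted p under 0.05.

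**Figure D5:**
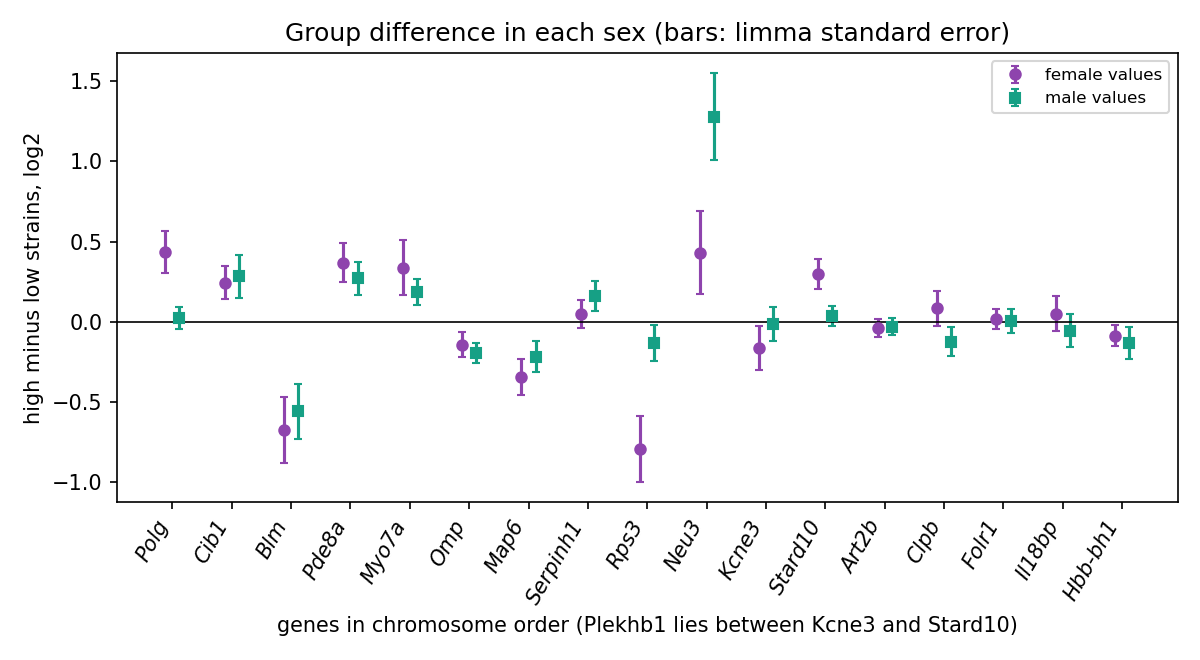
High minus low difference in log2 units on female (circles) and male (squares) values, with the limma standard error, for genes within 200 places in chromosome order. Neu3 has its larger value in males (1.28 against 0.43) and Rps3 in females (-0.79 against -0.13), and no sex difference passed adjustment.

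Among named genes elsewhere in the genome, the smallest p-values fell on many chromosomes. Over all features, ranks 2 to 14 by p belonged to unnamed features with no known chromosome, and F5 ranked 16. The genes below were also named after their values were seen, and none passed adjustment (limma adjusted p = 0.952 for each). F5, coagulation factor V, made by hepatocytes, averaged 2.88 ± 0.16 (SD, n = 7) in the high and 2.51 ± 0.17 (SD, n = 6) in the low strains, a difference of 0.36. Pcbp2, an RNA-binding protein, differed by 0.57, Vegfb, a vascular growth factor, by 0.42 and Mmp15, a membrane-type metalloproteinase, by 0.56. Lower values in the high strains were read for Stap1 (-0.59), a signalling adaptor, for Dstn (-0.37), an actin-depolymerising protein, and for Lgals8 (-0.24), a galectin.

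Lists of liver genes showed no member past the adjusted test. In fatty acid oxidation, the breakdown of fatty acids for energy, all 6 measured genes had the higher mean in the high strains, with a median difference of 0.29 beside -4e-04 over all features. Cpt2, of the mitochondrial carnitine shuttle, differed by 0.37 (limma adjusted p = 0.956). The 7 measured acute-phase genes had a median of -0.30, led by Saa3 at -0.80, whose low strains spread by an SD of 0.91 against 0.22 in the high strains. Under centring, scaling and quantile normalization the fatty acid median was 0.30, 0.37 and 0.31, with 6 of 6 genes higher in each, and the acute-phase median -0.30, -0.10 and -0.23. Bile acid genes had 1 of 9 under an unadjusted 0.05 in each direction, the export pump Abcb11 at 0.28 and the hydroxylase Cyp7b1 at -0.43. Among 22 drug and steroid metabolism genes there was 1 in each direction too, and among 22 MHC and interferon-response genes Gbp2 (-0.17) and Tgtp1 (-0.69) were lower. In lipid and cholesterol synthesis 1 of 9 was lower, Cyp51 at -0.57.

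The lists closest to the function of Plekhb1 or to the makeup of the tissue gave no adjusted call either. Their unadjusted counts stand beside the same 5.06% of all features and are likewise not read as results about the lists. Of 14 measured phosphoinositide and pleckstrin-homology genes 0 had an unadjusted p under 0.05 by limma, with a median of 0.07. The median over the 9 adult hepatocyte genes was 3.39 in the high and 3.40 in the low strains. With arrays scaled to equal spread, however, 9 of 9 had the higher mean in the high strains, with a median difference of 0.19, and the medians of the drug and steroid metabolism and bile acid lists were 0.17 and 0.23 in place of 0.01 and 0.01. At an unadjusted p under 0.05 there were 0 of 4 macrophage, 0 of 5 lymphocyte, 0 of 5 stellate cell and fibroblast, 0 of 1 bile duct, 0 of 6 red blood cell and 0 of 3 pancreas markers. Of 6 endothelial markers Eng was higher (0.37), and of 5 fat, muscle and kidney genes Cfd (0.29). Cell division genes had 1 of 10 lower (Hmgb2, -0.24), ribosomal protein and respiratory chain genes 2 of 12 lower (Rps3 and Rps4x), heat-shock and ER-stress genes 0 of 10, and X- and Y-linked sex genes 1 of 4 lower (Eif2s3x, -0.28). The part of these genes in any other value was not tested.

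The 9 hepatocyte genes, which set the direction of the ratios, had a median between 2.74 and 4.08 log2 units above the embryo mix on all 64 arrays. As deposited, the 32 pairs of opposite orientation had correlations across features from -0.895 to -0.556, as channels in opposite order do. The array most like a given array belonged to the same strain for 26 of 64 arrays. It belonged to the same Plekhb1 group for 45 of 64, a count that includes those 26. With 36 arrays in the high and 28 in the low group, matches of group also arise without any likeness within groups. For 1 BXD11 female array the title and the channel order disagree on the orientation. It was turned by its channel order, under which it correlated at 0.835 and 0.846 with the other 2 arrays of that RNA. Turned as titled, it has these correlations with the sign reversed. Signal intensities were not analysed here.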

How the data were processed

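The two-colour arrays carry 21936 probes. The authors deposited 1 log ratio per probe and array. The sources used here name no unit, scanner or normalization. These deposited ratios were taken as log10, since 94 of them stop at 2 or at -2, and were multiplied to log2. Every fold rests on that reading. Direction was set so that adult hepatocyte genes read above the embryo mix, since both channels carry the same dye label. Symbols came from the platform table: 3290 probes had 1 symbol, 4 had several, 170 were named by accession and 18476 had none. Probes of a symbol were averaged, which left 21915 features.

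Arrays were averaged within strain, sex and orientation, then over orientations and sexes, and 7 strains were compared with 6 by limma 3.58.1 in R 4.3.3 (lmFit, eBayes, Benjamini-Hochberg over all features other than Plekhb1, threshold 0.05). The fit was tested on simulated data. Single genes also had a two-sided exact permutation test over strains, not adjusted over genes. Beyond the 5 nearest genes on each side, the genes for it were chosen by a limma p on the same strain means. The difference between sexes was tested on female minus male values per strain. No gene was called, so the naming rule left Plekhb1 and the 5 nearest measured genes on each side. Other names were chosen after their values were seen. The members and gene lists were chosen with earlier results of these data known. Alternatives covered centring, scaling, quantile normalization, orientation, sex, replicate number, strain as a block, the unclear BXD11 array, neighbourhood width and each strain left out. Slide and scan date were not analysed here.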

Additional observations from a re-analysis of the deposited data

How the results depend on the processing

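The count of features past an adjusted p of 0.05 was 0 in 30 of 31 alternatives, leave-one-out fits included (0 to 0). The exception was the replicate block, fitted on 32 values of strain, sex and replicate number, which gave 1 (adjusted p = 0.0463), the unnamed clone PX00175I16. Only 5 strains have a second replicate number and strains share nothing but the number, so no pairing follows from it. The 32 values also repeat the 13 strains, so they are not independent replicates and this call carries no weight of its own. The features at an unadjusted p under 0.05 numbered 380 on male arrays and 499 over 17 strains on forward arrays, and 734 to 2004 as each strain was left out, the extremes without BXD12 and BXD15, with 1848 without BXD32. The count of 7 near genes became 11 within 200 places, a width chosen after seeing the data, 12 within 300, 4 on male arrays, 3 on female arrays and 4 over 17 strains, and 6 to 9 as strains were left out. The cause was not tested.

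The test of the sex difference gave 0 in all 25 alternatives. Neu3, Rps3, Map6, Stard10, Omp, Myo7a and Blm kept their sign in every alternative run. Neu3 ranged from 0.43 to 1.28 and Rps3 from -0.79 to -0.13. Map6 shrank to -0.0582 and Omp to -0.0599 over 17 strains on forward arrays. Stard10 was 0.0377 on male arrays and 0.3189 scaled. It was 0.0558 with the unclear BXD11 array turned as titled, opposite to the other arrays of that RNA. Myo7a was 0.1583 on swapped arrays. Hbb-bh1 was -0.2162 on forward and -0.0028 on swapped arrays. Neu3 had the smallest p in 6 of 31 alternatives. Signs turned only among small differences. Serpinh1 was -0.0662 with arrays scaled. Clpb was 0.0128 scaled, 0.0038 after quantile normalization, 0.1066 on forward arrays, 0.083 on female arrays, 0.0519 over 17 strains and -0.0561 to 0.0226 as strains were left out. Folr1 was -0.0324 scaled, -0.0444 after quantile normalization and -0.0196 to 0.0295 as strains were left out. Il18bp was 0.0041 centred, 0.0032 scaled, 0.0011 after quantile normalization, 0.0647 on swapped arrays, 0.004 on replicate 1 arrays, 3e-04 without the unclear BXD11 array, 0.0489 on female arrays, 0.066 over 17 strains and -0.0343 to 0.0436 as strains were left out. The scaling equalised median absolute values. It replaced, after its values were seen, a planned method that divides by array medians, which are near 0 here.

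Without intensities, a probe near background cannot be told from one that is well measured. That limit covers Map6 and Omp, whose strain means lay near the embryo mix, from -0.07 to 0.46 and from -0.07 to 0.35.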

Other observations

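On 2 further swapped arrays, labelled as enriched B6 and D2 liver RNA and used in no comparison above, Plekhb1 read higher in B6 by 0.998 in males and 1.72 in females. Neu3 read 0.33 and 1.17 on the same arrays. No forward arrays of these RNAs were analysed here.

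Leaving out the pair of BXD15 female replicate 1 arrays, one of which read -1.60 for Plekhb1, gave 1393 features at an unadjusted limma p under 0.05 and 9 of the 36 genes within 150 places of Plekhb1 (25%), with 0 adjusted calls. This was chosen after seeing the data.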
